A study of Mus musculus with 4 samples.

Results

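The clustered protocadherins are 57 of the 21755 protein-coding genes on the mouse autosomes and X chromosome, and 43 of them carried an H3K4me3 peak at their own promoter in adult calf muscle. The rule that chose them uses name and place and no measured value: every protein-coding gene on chromosome 18 whose symbol in the GENCODE M21 annotation of mm10 places it in the alpha, beta, gamma A, gamma B, gamma C or alpha C series. The set holds 12 alpha genes, 22 beta genes, 18 gamma A and B genes (12 A and 6 B) and 5 C-type genes (Pcdhac1, Pcdhac2, Pcdhgc3, Pcdhgc4 and Pcdhgc5). GENCODE gives the symbol Pcdha11 to 2 genes, and the first of them was taken as Pcdha10, the name that RefSeq has at that position.

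Clustered protocadherins are cell adhesion proteins best known from neurons, where each cell uses its own combination of isoforms and the combination serves neurites in telling self from non-self. In the alpha and gamma clusters each variable exon has a promoter of its own and is spliced to constant exons shared by the whole cluster, while the beta genes are single-exon genes without shared constant exons. The alpha, beta, gamma A and gamma B promoters are known in neurons for choice that varies from cell to cell, with CTCF and cohesin bringing promoters to distant enhancers and DNA methylation silencing the rest, whereas the C-type genes are known for more uniform use.

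H3K4me3, trimethylation of histone H3 at lysine 4, marks promoters, and it was mapped by chromatin immunoprecipitation sequencing (ChIP-seq) in gastrocnemius, the large calf muscle. The tissue came from adult female mice aged 2 months of the B6CASTF1/J strain, a cross of C57BL/6J and CAST/EiJ, with no treatment or altered allele named in the labels. The 4 libraries were technical libraries 1 and 2 of pool E (biological replicate 1) and of pool F (biological replicate 2), each pool made from 2 biosamples, and all groups shared strain, sex, age and tissue. The libraries of a pool share 1 deposited peak list, so n is 1 list for each pool, no test over samples exists, and values are given for the list of pool E, the list of pool F and the replicated list made from both.

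Marked means that a list had a peak no more than 1000 bp from the gene's own transcription start site (TSS), taken as the start of its protein-coding transcript with the longest coding sequence. The signal value of a peak is the authors' own measure of its height, without a stated reference, so it ranks peaks within 1 list and is not compared in size between lists. The lists hold 41955 (replicated), 42418 (pool E) and 39544 (pool F) peaks, give no read counts, and leave the depth of each library unknown. Of the muscle fibre genes, 6 of 6 (Ckm, Acta1, Mylpf, Actn3, Des and Ttn) were marked, at signal values of 40.0 to 58.8 in the replicated list. Over all protein-coding genes 66.3% were marked there, with a median signal value of 45.0. Whole muscle also holds cells other than fibres. Of 12 neuron markers, 7 were marked (8 in pool E, 7 in pool F) at 7.45 to 21.3. The highest were Nefm, Slc17a7, Stmn2 and Syt1, while Chat, Elavl4, Gad1, Slc17a6 and Snap25 were not marked. In the replicated list 66.3% of all protein-coding genes were marked, so this count was not read as a sign of neurons. The part of each cell type in the values below was not tested. In a bulk tissue fewer cells with the mark and less mark per cell cannot be told apart.

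The subgroups differed in how many promoters were marked. In the replicated list 43 of the 57 genes were marked (75.4%), against 66.3% of all protein-coding genes. The alpha genes were marked in 2 of 12 cases (16.7%), the beta genes in 18 of 22 (81.8%), the gamma A and B genes in 18 of 18 and the C-type genes in 5 of 5. Thus the alpha variable promoters lay far under the share of all genes, and every gamma and C-type promoter was marked. The members as a whole no longer stood above all genes when the peak had to cover the TSS itself: 61.4% of members against 62.7% of all genes.

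The counts hardly changed between the pools. Pool E marked 43 of the 57 genes, against 66.3% of all genes in that list, and pool F also marked 43, against 65.9%. A total of 42 genes were marked in both pools, Pcdha5 in pool E only and Pcdhb6 in pool F only. Over all genes, 14478 were marked in either pool, and 98.6% of these in both. In all 42 genes the peaks of the pools overlapped, and in 41 the overlap covered 50% or more of the larger peak, the exception being Pcdhb11 at 31.9%.

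**Figure D1:**
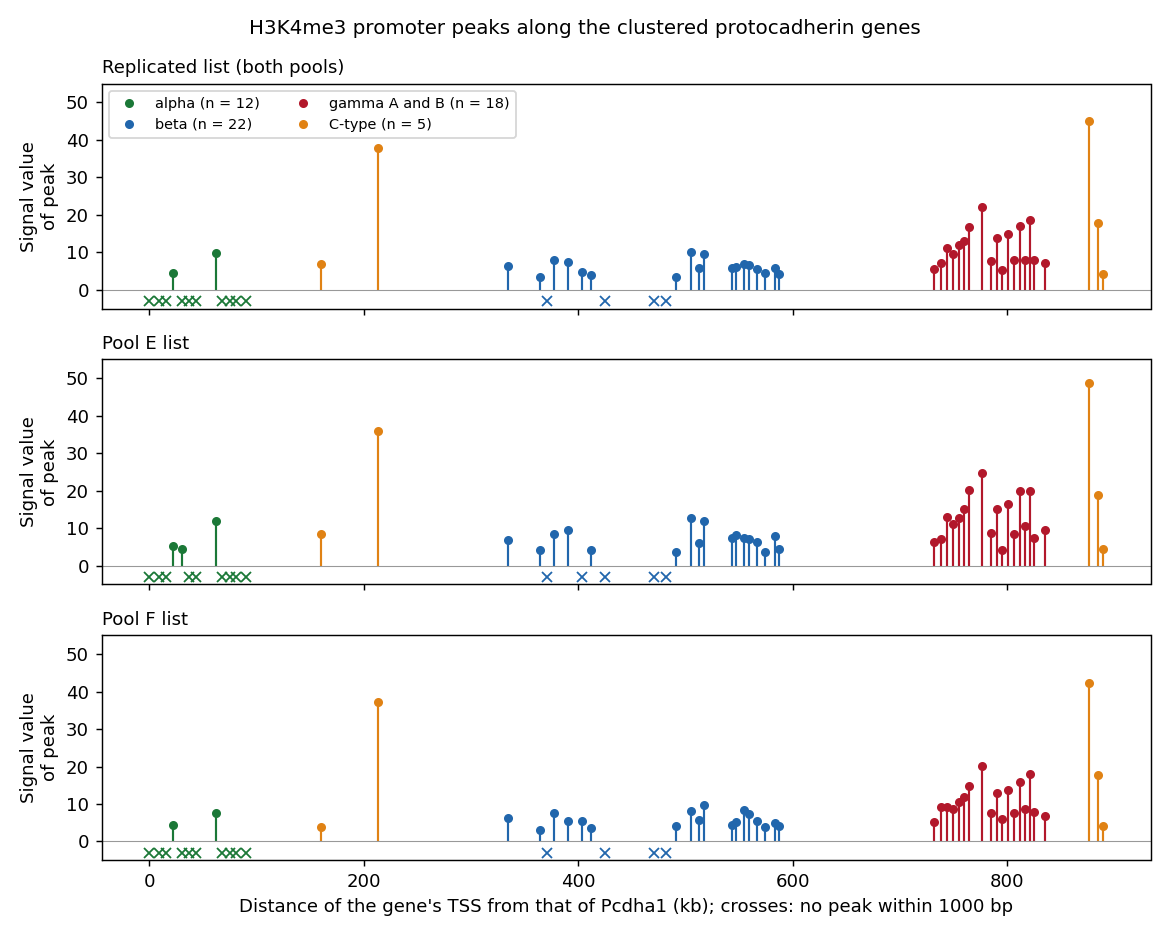
Signal value of the promoter peak of each clustered protocadherin gene (y axis, authors' signal value) against the distance of its TSS from that of Pcdha1 (x axis, kb), for the replicated list, pool E and pool F; crosses are genes with no peak within 1000 bp. The alpha genes at the left are mostly crosses, and the highest points are the C-type genes Pcdhac2 and Pcdhgc3.

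The peaks at these promoters were low and narrow beside those of other genes. The median signal value of the 43 marked genes in the replicated list was 7.54 (range 3.30 to 44.9), against 45.0 over all marked genes (interquartile range 31.0 to 54.6). Expressed as the percent of marked genes with a lower signal value, the median member stood at 5.96 and the highest, Pcdhgc3, at 49.7. The median peak width was 667 bp (284 to 5309 bp), against 2249 bp over all marked genes. By subgroup the median signal value was 5.93 for beta, 7.12 for alpha (2 genes), 10.4 for gamma A and B and 17.9 for C-type genes, and the median width was 503.5, 445, 810.5 and 1805 bp in the same order. Every −log10 q-value of the 43 peaks in the replicated list was at least 3.63.

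The alpha cluster's variable promoters were nearly bare. Pcdha8 (TSS at 36992371 on chromosome 18, plus strand like all members) had a signal value of 9.73 in the replicated list, 12.0 in pool E and 7.73 in pool F. Its peak of 606 bp ran from 36992270 to 36992875 in the replicated list and lay over the TSS and the start of the variable exon. Pcdha4 had the values 4.50, 5.14 and 4.32 in the same order, with a peak of 284 bp from 36952688 to 36952971 that began 40 bp downstream of the TSS. These were the only alpha genes marked in both pools.

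The Pcdha4 peak also holds the start of Gm42416, a protein-coding model. Gm42416 has an exon under this peak and another under the peak at the first gamma constant exon. An antisense start of Gm38225 lies within 1000 bp, so the peak cannot be given to Pcdha4 alone. Pcdha5 was marked in pool E at 4.50 with a peak of 286 bp and was unmarked in pool F and the replicated list. It stood at 3.27 in the pooled list, which was also made from both pools. No peak of any of the 3 lists lay near the other alpha genes: Pcdha1, Pcdha2, Pcdha3, Pcdha6, Pcdha7, Pcdha9, Pcdha10, Pcdha11 and Pcdha12. The nearest replicated peak to an unmarked alpha TSS was 5005 bp away (Pcdha9) and the farthest of these distances was 27274 bp (Pcdha12).

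The C-type promoters, which end the alpha and gamma clusters, ran from 4.12 to 44.9 in the replicated list. Pcdhgc3 had the highest signal value of the family, at 44.9 in the replicated list, 48.8 in pool E and 42.2 in pool F. Its peak was also the widest, with 5309, 5343 and 3930 bp, and in the replicated list it covered 100% of the first exon and ran 4639 bp past the TSS. In pool F the far end stood as a separate peak of 620 bp. A start of the antisense gene BC037039 lies inside the Pcdhgc3 peak in all 3 lists, so its width cannot be given to Pcdhgc3 alone. Pcdhac2, the last variable exon of the alpha cluster, came next at 37.8, 35.8 and 37.3, with a peak of 1805 bp from 37143193 to 37144997 in the replicated list.

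The remaining C-type genes were lower. Pcdhgc4 stood at 17.9, 18.7 and 17.7 in the replicated, pool E and pool F lists, with a width of 2714 bp in the replicated list. Pcdhac1 stood at 6.80, 8.38 and 3.91, and Pcdhgc5 at 4.12, 4.50 and 4.15. Pcdhgc3 and Pcdhac2 were thus the highest 2 of all members in each list, while Pcdhgc5 lay among the low beta genes. Within the alpha cluster, both C-type exons were marked where 10 of the 12 alpha exons were not.

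All 18 gamma A and B promoters were marked in all 3 lists, with replicated signal values of 5.26 to 22.0. The 6 gamma B genes had a median of 14.3 (9.64 to 18.7) and the 12 gamma A genes a median of 7.84 (5.26 to 22.0). The genes are given in their order along the chromosome, each with its value in the replicated, pool E and pool F lists. Pcdhga1 stood at 5.52, 6.28 and 5.27. Pcdhga2 stood at 7.06, 7.08 and 9.09, and Pcdhga3 at 11.2, 13.0 and 9.27. Pcdhgb1 had 9.64, 11.1 and 8.75, Pcdhga4 had 11.8, 12.7 and 10.6, and Pcdhgb2 had 13.0, 15.2 and 11.8. Values in this first stretch rose in most steps towards Pcdhga5 and Pcdhga6, which stood highest among the gamma A genes. Pcdhga5 had 16.8, 20.1 and 14.7. Pcdhga6, the highest gamma A or B gene in each list, had 22.0, 24.8 and 20.2.

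Past Pcdhga6, gamma A and gamma B genes alternate on the chromosome, and so did their values. Pcdhga7 had 7.70, 8.64 and 7.47 and its neighbour Pcdhgb4 had 13.8, 15.2 and 12.8. Pcdhga8 had 5.26, 4.29 and 6.02 and Pcdhgb5 had 14.8, 16.4 and 13.8. Pcdhga9 had 7.83, 8.35 and 7.56 and Pcdhgb6 had 17.1, 19.9 and 15.9. In each of these pairs the gamma B gene was the higher in every list. Pcdhga10 had 7.99, 10.7 and 8.58 and Pcdhgb7, the highest gamma B gene in the replicated list, had 18.7, 19.9 and 18.0. Pcdhga11 had 7.86, 7.31 and 7.81, and Pcdhga12, the last, had 7.26, 9.41 and 6.71. Pcdhgb8, which lies between Pcdhga11 and Pcdhga12, is annotated as a polymorphic pseudogene and so is no member, and its peak stood at 16.9, 18.4 and 15.6.

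Repeated sequence also differed among these genes. In the 1001 bp around the TSS, the share of 31-base words that occur elsewhere in the genome was 19.6 to 29.5% at Pcdhgb4, Pcdhgb5, Pcdhgb6 and Pcdhgb7 and at most 6.49% at the gamma A genes. Pcdhgb1 and Pcdhgb2 had 0%, and the highest gamma A genes, Pcdhga6 and Pcdhga5, had 2.99 and 5.15%. Over the 18 gamma A and B genes Spearman's rho between this share and the signal value was 0.43, and over the 43 marked members it was 0.14. Such words can bear on how reads are placed, and their part in the signal values was not tested.

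The beta genes held the low end of the family. The 18 marked beta genes had replicated signal values of 3.30 to 10.2 and peak widths of 294 to 695 bp. The highest was Pcdhb12, at 10.2 in the replicated list, 12.6 in pool E and 8.24 in pool F. Pcdhb14 was next at 9.68, 12.0 and 9.86, followed by Pcdhb4 at 7.83, 8.56 and 7.56. Pcdhb5 had 7.54, 9.41 and 5.49. These 4 led the beta genes in the replicated list and in pool E, but not in pool F. There Pcdhb17 stood above Pcdhb12 and Pcdhb4, and Pcdhb5 stood below Pcdhb17, Pcdhb18, Pcdhb1 and Pcdhb13, among others.

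A middle group of beta genes lay between 5 and 7 in the replicated list. Pcdhb17 had 6.97, 7.28 and 8.44, Pcdhb18 had 6.69, 7.07 and 7.22, and Pcdhb1 had 6.40, 6.85 and 6.19. Pcdhb16 had 6.12, 8.13 and 5.17, Pcdhb15 had 5.93, 7.49 and 4.49, and Pcdhb21 had 5.93, 7.92 and 4.83. Pcdhb13 had 5.74, 5.997 and 5.68, and Pcdhb19 had 5.55, 6.22 and 5.49. Their order differed between the pools: Pcdhb16, Pcdhb21 and Pcdhb15 led these genes in pool E and were the lowest of them in pool F.

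The lowest beta genes stood under 5 in the replicated list. Pcdhb6 stood at 4.69 in the replicated list and 5.34 in pool F, and in pool E its nearest peak was 7769 bp away. Pcdhb20 had 4.43, 3.73 and 3.78 in the replicated, pool E and pool F lists, and Pcdhb22 had 4.12, 4.50 and 4.15. Pcdhb7 had 3.84, 4.07 and 3.63, Pcdhb2 had 3.46, 4.29 and 2.95, and Pcdhb11 had 3.30, 3.61 and 4.05. With a −log10 q-value of at least 5 asked for, Pcdhb2 and Pcdhb7 were no longer marked in the replicated list.

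The unmarked beta genes were Pcdhb3, Pcdhb8, Pcdhb9 and Pcdhb10, in all 3 lists. The last 3 are consecutive. The nearest replicated peak lay 5694 bp from the TSS of Pcdhb3, 13130 bp from that of Pcdhb8, 20524 bp from that of Pcdhb9 and 9715 bp from that of Pcdhb10. At the edge of the 1000 bp window, the marked gene with the most distant peak was Pcdhb22 at 444 bp and the unmarked gene with the nearest was Pcdha9 at 5005 bp, so no gene lay close to the limit.

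**Figure D2:**
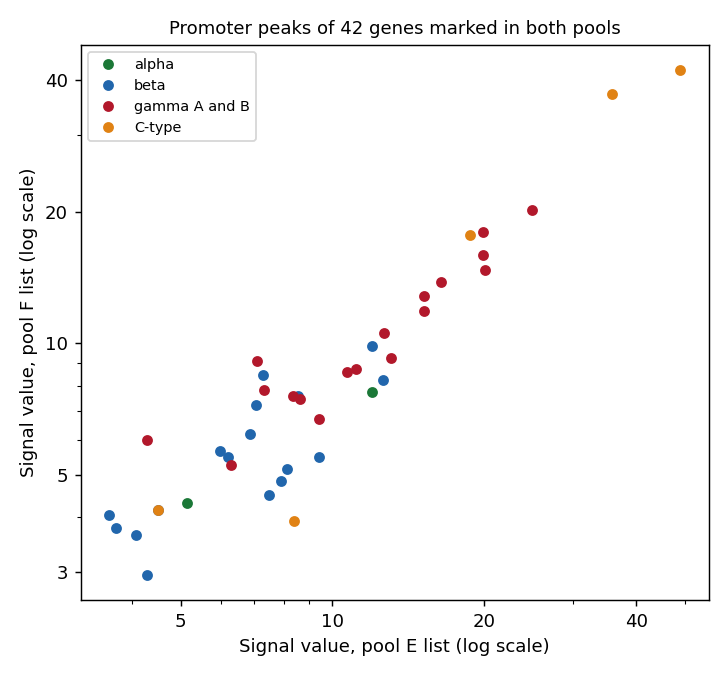
Signal value of the promoter peak in the pool E list (x axis, log scale) and in the pool F list (y axis, log scale) for the 42 genes marked in both pools, coloured by subgroup. The order of the genes is alike in both lists, with beta genes at the low end and Pcdhgc3 and Pcdhac2 at the high end.

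The order of the genes by signal value was similar in the pools. Over the 42 genes marked in both, Spearman's rho between the lists was 0.883, a description across genes, which are not replicates. Over the 14233 other genes marked in both pools it was 0.912.

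The peaks lay over the start of the variable exon. In all 43 marked genes the summit of the replicated peak was downstream of the TSS, by 7 to 672 bp with a median of 154 bp. Among the 14381 other marked genes the summit was downstream in 82.6%, with a median of 193 bp. The TSS itself was inside the peak in 35 of the 43, against 94.6% of all marked genes. The 8 others were Pcdha4, Pcdhb5, Pcdhb7, Pcdhb17, Pcdhb21, Pcdhb22, Pcdhga12 and Pcdhgc5. Of these, the peaks of Pcdhb22 and Pcdhgc5 held another annotated start of the same gene, so this count depends on the start chosen.

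The peaks covered only the front of the exon in most genes. The share of the first exon that the peak covered had a median of 10.7% in beta, 29.2% in gamma A and B and 49.4% in C-type genes. Beta first exons are longer, with a median of 3724 bp in the marked genes against 2604 bp in gamma A and B. Of the peaks that began downstream of the TSS, those of Pcdhb22 and Pcdhga12 began farthest from it, at 444 and 346 bp. These are also genes with a long stretch between TSS and coding start (610 and 537 bp). Each has 2 annotated starts, so both distances depend on the start chosen. The Pcdhb22 peak holds the other start of Pcdhb22, and the Pcdhga12 peak lies 153 bp from the other start of Pcdhga12.

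**Figure D3:**
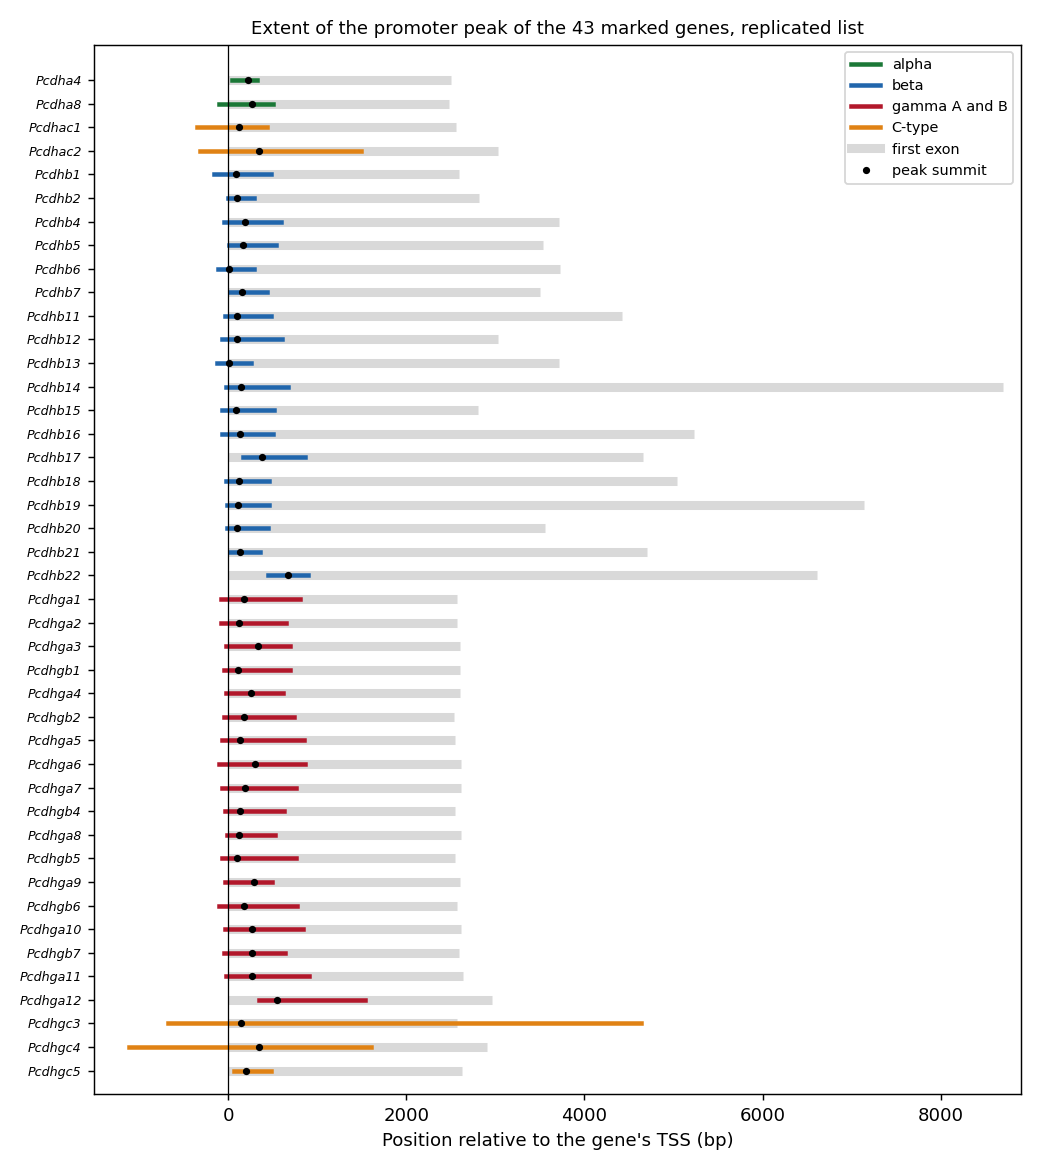
Extent of the replicated promoter peak (coloured line) relative to the TSS (x axis, bp) for each of the 43 marked genes (y axis, in chromosome order), with the first exon in grey and the summit as a black point. Beta and gamma peaks cover the front of the exon, while the Pcdhgc3 peak covers the whole exon and runs on to 4639 bp.

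CpG content, which goes with H3K4me3 at most mammalian promoters, did not separate marked from unmarked members. Each TSS window of 1001 bp was put in a class: high where CpGs reached 0.75 of the number expected from base composition and GC reached 55%, low where that CpG ratio was under 0.48, and intermediate otherwise. Over all genes, 99.2% of the high class, 94.4% of the intermediate class and 27.1% of the low class were marked in the replicated list. Of the members, 1 of 1 in the high class (Pcdhgc3), 24 of 34 in the intermediate class and 18 of 22 in the low class were marked.

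The alpha and beta genes stood on opposite sides of those shares. All 12 alpha promoters were intermediate, with ratios of 0.569 to 0.749 (median 0.693), and 2 were marked. Of the beta promoters, 19 were low, with 15 marked, and 3 were intermediate (Pcdhb1, Pcdhb2 and Pcdhb13), all marked, and the median ratio was 0.378. The gamma A and B promoters had a median ratio of 0.593, with 16 intermediate and 2 low (Pcdhga4 and Pcdhga12), all marked. Among C-type genes Pcdhac1, Pcdhac2 and Pcdhgc4 were intermediate and Pcdhgc5 was low.

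The classes are wide, so the members were also set beside other genes with ratio and GC content inside the range of each subgroup, a comparison chosen after the values were seen. Of 71 other genes within the alpha range, 76.1% were marked, against 2 of the 12 alpha genes. Of 2955 other genes within the beta range, 27.8% were marked, against 18 of 22 beta genes. Of 1359 other genes within the gamma range, 61.4% were marked, against 18 of 18. The marked genes among these others had median signal values of 45.9, 21.6 and 35.5 in the same order, all above the medians of the subgroups.

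Among the marked members, signal value and CpG ratio had a Spearman rho of 0.566 (43 genes), but within subgroups rho was 0.05 in beta and 0.21 in gamma A and B (18 genes each). The relation over all marked members was thus larger than that inside either subgroup.

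**Figure D4:**
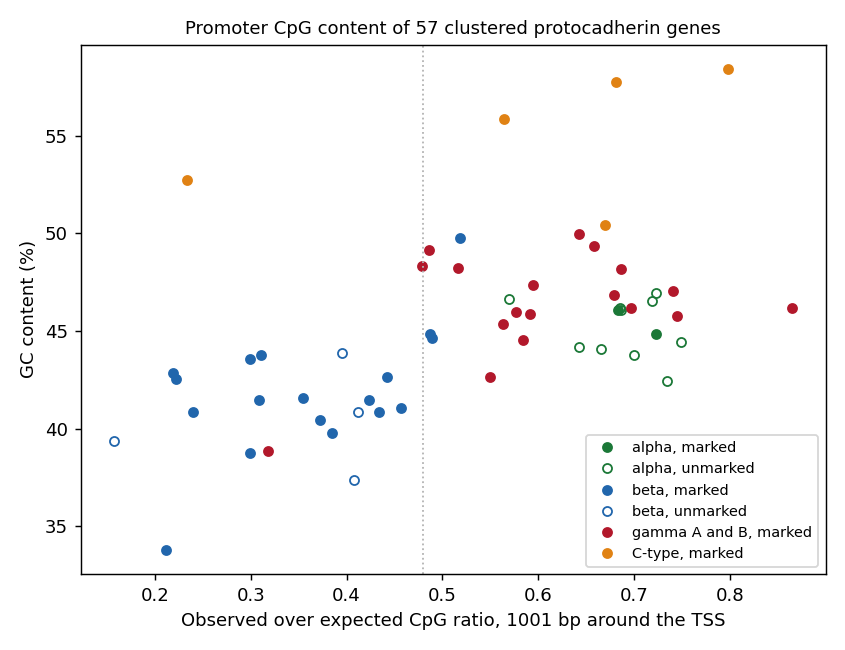
Observed over expected CpG ratio (x axis) and GC content (y axis, %) of the 1001 bp around the TSS of the 57 genes; filled points are marked in the replicated list, open points are not, and the dotted line is the ratio of 0.48 below which a promoter is low. Open alpha points lie at higher ratios than all beta points.

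Repeated sequence was highest at the alpha promoters. The share of 31-base words of the TSS window found elsewhere in the genome was 9.89 to 29.0% in alpha (median 22.5%), 0 to 16.1% in beta (median 0) and 0 in all C-type genes. The marked gene Pcdha8 had the lowest share of the alpha genes, and marked Pcdhgb4 had 29.5%, above every alpha gene. How far repeated words bear on the missing alpha peaks was not tested. The strain is a hybrid and the lists are on the mm10 reference, and the part of CAST/EiJ sequence differences was not tested either.

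The 4 letters of a short motif known from these promoters were common upstream of the members. The 4 letters CGCT, searched on both strands (as AGCG on the other) in the 300 bp upstream of the TSS, were present in 55 of 57 members (96.5%), the exceptions being Pcdhb22 and Pcdhga12. Of all protein-coding genes 64.8% had them, and of those in the low, intermediate and high classes 33.4%, 84.1% and 94.8%. All 14 unmarked genes had the 4 letters, so their presence did not separate marked from unmarked members. A match of 4 letters is a description and not a bound site, and it does not show that the known motif is present. Pcdhb22 and Pcdhga12 each have another annotated start, and only the 300 bp upstream of the chosen TSS were searched.

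Antisense transcripts start within 1000 bp of the TSS of Pcdha4 (Gm38225), Pcdha6 (Gm37753), Pcdha12 (Gm10545), Pcdhga1 (Gm37118), Pcdhga8 (Gm37165) and Pcdhga11 (Gm26672). Of these genes Pcdha6 and Pcdha12 were unmarked and the other four were marked. The peaks carry no strand, so the mark of an antisense start cannot be told apart from that of the variable exon.

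Across the whole locus, from 36929285 to 37842873 on chromosome 18 (913.6 kb), the replicated list held 53 peaks, of which 43 were the members' promoter peaks and 10 lay elsewhere. No peak was shared by a pair of members. The highest of the 10 were at Taf7, a gene between the beta and gamma clusters that encodes a subunit of the general transcription factor TFIID (55.5 in the replicated list, 57.3 in pool E and 52.0 in pool F), and at the long noncoding RNA 3222401L13Rik (41.7, 42.4 and 36.2). Taf7 stood above every member in each list.

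The remaining 8 were lower. A peak from 37824060 to 37825878 in the replicated list, at 10.5, lay over a start of Gm38182 and the first constant exon of the gamma genes, and another from 37841562 to 37842744, at 4.98, lay over the last gamma constant exon. A peak at the start of Gm10544 stood at 7.46. The 2 peaks from 37217997 to 37218407 and from 37285193 to 37285974 overlapped no annotated exon and stood at 3.27 and 6.38. The first of these was not in the pool F list. The others were those of Pcdhgb8 at 16.9, a 556 bp peak over an exon of the Pcdhgc5 gene at 3.59 and one of 177 bp in Gm29994 at 2.41, which was in neither pool's list. Of the 43 promoter peaks, those of Pcdha4 (Gm42416), Pcdhga8 (Gm37165), Pcdhga11 (Gm26672) and Pcdhgc3 (BC037039) also hold a start of the gene named in brackets.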

How the data were processed

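H3K4me3 ChIP-seq of gastrocnemius was deposited as 4 narrowPeak lists on mm10. Per the deposited text files, each pool's filtered alignment gave its own list, both alignments together gave a replicated and a pooled list, and an input was used. Aligner, peak caller and settings: not given in the sources used here. Signal and −log10 q-value were used as deposited by the authors. Depth is unknown. Genes came from GENCODE M21 and sequence from RefSeq GRCm38.p6, the build of mm10. Marking used a window of 1000 bp and the marking peak with the highest signal value. CpG class used 500 bp on each side of the TSS. Every gene marked in a list is named with its values. Of the other gene lists, up to 4 marked genes with the highest signal value are named, with up to 4 unmarked ones in alphabetical order; the neuron list names all 5 of its unmarked genes, the fifth chosen after its values were seen. One marker list is not reported here. The rule for the members uses no measured value, but the family and the lists were picked with earlier results of these data known. The marking was tested on simulated data. No p-value was computed, because 1 peak list per pool and 1 condition allow no test. Scripts used Python 3.11.15, numpy 2.4.6, pandas 2.3.3, scipy 1.17.1, pysam 0.24.0 and matplotlib 3.10.9.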

Additional observations from a re-analysis of the deposited data

How the results depend on the processing

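The counts were redone with a TSS window of 0 or 2500 bp, any annotated TSS, the summit in place of the peak's edge, a stricter q-value, the pooled list and each pool's list alone. Of the values redone, 74 stayed within 1.5 times the count reported or near the value reported, and 3 moved. With a window of 0 bp, 1 alpha gene was marked instead of 2, because the Pcdha4 peak begins past its TSS, and 13 beta genes instead of 18. Then 35 of the 57 genes were marked (34 in each pool), 61.4% against 62.7% of all genes, so the members no longer stood above all genes. In the pooled list 3 alpha genes were marked. The median signal value of marked genes was 8.38 in the pool E list, 7.56 in the pool F list and 7.54 in the replicated list, and that of all marked genes 48.7, 42.7 and 45.0, so the members' medians are to be read within each list. With pool F alone the median width was 603 bp in place of 667, and with pool E alone 669. With either pool alone the marked genes numbered 43, with 2 or 3 alpha, 17 or 18 beta, 18 gamma A and B and 5 C-type genes. With −log10 q of at least 5, 41 genes were marked in the replicated list. No paired analysis was possible because each pool has 1 peak list that its technical libraries share and no result comes from a test. The lists give no depth, so an unmarked promoter is one without a peak in these lists, and a level below the callers' limit was not detectable.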

Other observations

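Protocadherin genes outside the clusters, which lie on several chromosomes, had higher and wider peaks. In the replicated list 10 of 12 were marked, where 66.3% of all protein-coding genes were, at 11.9 to 49.7 with a median of 34.2. By CpG class 1 of the 12 is high, 8 are intermediate and 3 are low. Of all genes in these classes 99.2%, 94.4% and 27.1% were marked, so the count was not read as a trait of these genes. Pcdh18 stood at 49.7, Pcdh7 at 44.8, Pcdh9 at 39.4 and Pcdh19 at 37.3, and Pcdh1 and Pcdh15 were unmarked. Genes known to act on the clustered promoters (CTCF, cohesin and its loaders and releasers, DNA methyltransferases and silencers) were marked in 17 of 17 cases, at 25.2 to 61.6, the highest at Mau2, Nipbl, Pds5a and Dnmt3b. Of these 17 genes 15 are of the high CpG class, in which 99.2% of all genes were marked, so the count is near the background. Of 19 genes beside and between the clusters, 18 were marked, at 6.02 to 60.4, where 66.3% of all protein-coding genes were. Slc25a2, between the beta and gamma clusters, was not marked. Of these 19, 5 are of the high, 9 of the intermediate and 5 of the low CpG class, with 99.2%, 94.4% and 27.1% of all genes marked. The count is not one of separate promoters. Apbb3 and Slc35a4 share a peak, as do Hars and Hars2, Ik and Ndufa2, and Hdac3 and Rell2. The lowest, Dnd1, counted through a peak of 420 bp that lay 646 bp from its TSS.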
